A study of Mus musculus with 20 samples.

Results

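The transcriptome of the frontal cortex was described in wild-type mice (+/+) of a TDP-43 Q331K knock-in series. The 6 wild-type libraries, of 20 in the series, were chosen by their genotype label alone. All came from C57BL/6 animals at 5 months of age and carry no Q331K allele. The 14 others, 6 from Q331K/+ and 8 from Q331K/Q331K mice of the same strain and age, were used only to give their own spread, and no genotypes were compared. The labels name separate samples and say nothing of sex, litter or pooling, so the spread between libraries may be partly technical. Since no groups were compared, no test between groups was run, and all values below are descriptions of these 6 libraries. An outlier criterion was used only to flag single libraries, and a chi-square only to check that libraries were not duplicates.

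The cerebral cortex is built from glutamatergic projection neurons arranged in layers, a smaller population of GABAergic interneurons, and glial and vascular cells. Projection neurons are known for dense dendritic spines rich in the calcium sensor calmodulin and its kinase, interneurons for fast inhibition, astrocytes for clearing glutamate, and oligodendrocytes for the myelin sheath. RNA from a piece of tissue mixes all of these cells. In such bulk samples, fewer cells of a type and less RNA per cell cannot be told apart.

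Between 75168829 and 96821696 counts fell on genes in each library. Levels are given as CPM, counts scaled with TMM factors to 1000000 per library. Different genes are compared as CPM per kb of exon, except where a ranking by CPM is named. At least 1 CPM on average was reached by 13849 genes, of which 13243 were protein coding, 84 lincRNAs and 110 pseudogenes. In all 6 libraries, 13482 genes stood at 1 CPM or more, whereas 5583 of the 25965 rows of the table had no count in any of them. Levels covered a wide range: 9904 genes had a mean of 10 CPM or more, 2187 of 100 CPM or more, and 69 nuclear genes of 1000 CPM or more. Mitochondrial transcripts took 8.69 ± 1.72% of counts (SD, n = 6), and nuclear protein-coding genes 89.8 ± 1.71% (SD, n = 6). The 10 nuclear genes highest in CPM held 3.37% of all counts, the leading 100 held 14.1% and the leading 1000 held 44.2%. Spread is given as the coefficient of variation (CV), the SD over the 6 libraries in percent of the mean. Its median over the 13849 genes was 5.60%, and 219 genes, 1.58% of them, exceeded a CV of 25%, the share against which the counts of variable genes in each list below are set. Counts of list members highest or lowest in a given library are stated without the share over all genes. They describe the library and do not set a list apart from other genes. Log CPM of any pair among the 6 libraries had a Pearson correlation across genes between 0.992 and 0.997, where genes are not independent and all pairs share abundance and length effects.

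Ranked by CPM, which is not scaled to length, the highest nuclear gene coded for a noncoding RNA. Meg3, an imprinted long noncoding RNA of neurons, stood at 5330.3, 5442, 5509.9, 5774, 6039 and 6309 CPM in replicates 1 to 6. Camk2a, the alpha subunit of calcium/calmodulin-dependent kinase II, followed at 4890.0 ± 388 CPM (SD, n = 6). Kif5a, a kinesin heavy chain of axonal transport, had 4539 ± 199 CPM (SD, n = 6), and Snap25, a SNARE of synaptic vesicle fusion, 3813 ± 112 CPM (SD, n = 6). Others of the first 10 were Slc1a2, the main astrocytic glutamate transporter, at 2647 CPM, the noncoding RNA Snhg11 at 2461, Sparcl1, a secreted protein of astrocytes, at 2371, and Mtap1a (Map1a), a microtubule-associated protein, at 2038. Ranks 11 to 20 were held by Glul, Syt1, Camk2n1, Mbp, Eef1a1, Hspa8, Kif1a, App, Calm3 and Nrgn, from 2003 down to 1724 CPM. Of these 20 genes, Hspa8 varied most between libraries, with a CV of 13.4%, and Kif1a least, with 0.849%.

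Scaled to exon length, the leading transcript was that of a calmodulin-binding protein of spines. Nrgn, which codes for neurogranin, reached 1186 ± 88.2 CPM per kb (SD, n = 6). Calm2 followed at 1132 ± 40.6 CPM per kb (SD, n = 6), Sparcl1 at 807 ± 39.1, the elongation factor Eef1a1 at 728 ± 26.1 and Calm3 at 716 ± 19.8. The first 20 also included Rplp1 of the ribosome, Camk2a, the protease inhibitor Cst3, Kif5a, the lipid carrier Apoe, the peptide-processing enzyme Cpe, Glul, Sepw1, Snap25, Hsp90ab1, Psap, Cox8a, Aldoa and Eef1a2, the last at 496 ± 15.4 CPM per kb.

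The labelled tissue was checked against its markers, and those of cortex were present in every library. The vesicular glutamate transporter of cortical excitatory neurons, Slc17a7, stood at 1395 ± 23.6 CPM (SD, n = 6), with a CV of 1.69%. The cortical transcription factor Tbr1 had 171 ± 6.17 CPM (SD, n = 6). All 12 excitatory markers passed 1 CPM, led per kb by Nrgn, Camk2a, Slc17a7 and Chn1, and the lowest was Emx1 at 8.68 CPM per kb. Slc17a6, the transporter typical of thalamus and brainstem, lay 87.3-fold below Slc17a7 per kb. Each layer was represented, with all 10 upper-layer, all 10 layer 5 and all 11 deep-layer genes above 1 CPM. Upper layers were led by Wfs1 (27.5 CPM per kb), Rasgrf2 (24.5), Calb1 (18.6) and Plxnd1 (15.1), layer 5 by Pcp4 (179 ± 4.81) and Parm1 (14.2), and layer 6 and subplate by Rprm (29.1) and Hs3st4 (11.4). Replicate 3 held the highest value for 9 of the 11 layer 6 and subplate genes and for 5 of the 10 layer 5 genes, and the lowest for 5 of the 10 upper-layer genes.

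Inhibitory neuron markers were present at a steady level. The 12 GABAergic markers together made 1185 ± 15.7 CPM (SD, n = 6), a CV of 1.32%, and 0 of 12 exceeded a CV of 25%. With library totals in place of TMM factors the CV of the sum was 3.32%. Among the highest were the synthesising enzymes Gad1 (42.4 CPM per kb) and Gad2 (25.2), and the vesicular transporter Slc32a1 (27.5), and Dlx5 was lowest at 1.74. Among subclass markers, Sst, the peptide of somatostatin cells, had 263 ± 17.2 CPM per kb (SD, n = 6), Cck 211 ± 11.3, Npy 156 ± 13.7, Pvalb 50.8 ± 4.11 and Vip 11.9 ± 1.30. Peptide transcripts are packed into few cells, so these levels do not rank the cell classes by number. Chodl, a marker of a rare long-range somatostatin class, stayed under 1 CPM.

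Glial and vascular lists were present in full or nearly so. High astrocyte genes per kb included the glycolytic enzyme Aldoc (289 ± 31.8), Slc1a2 (202 ± 5.06) and Slc1a3 (78.2), and high oligodendrocyte genes the myelin genes Mbp (218 ± 22.5), Mobp (82.6) and Mal (57.5). The precursor list was led by Olig1 (30.1) and Sox10 (11.1) and made 260.7 ± 3.75 CPM in all. High microglial genes were the lysosomal protease Ctss (54.1) and the complement genes C1qa (47.7) and C1qb (42.1), with Aif1 lowest at 2.37. Bsg (167 ± 7.28), the glucose transporter Slc2a1 (27.1), Itm2a and Ly6c1 led endothelium, and Vtn (25.6) and Rgs5 (19.1) led mural cells. None of the 14 microglial, 14 astrocytic, 12 endothelial or 14 myelin genes exceeded a CV of 25%.

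**Figure D1:**
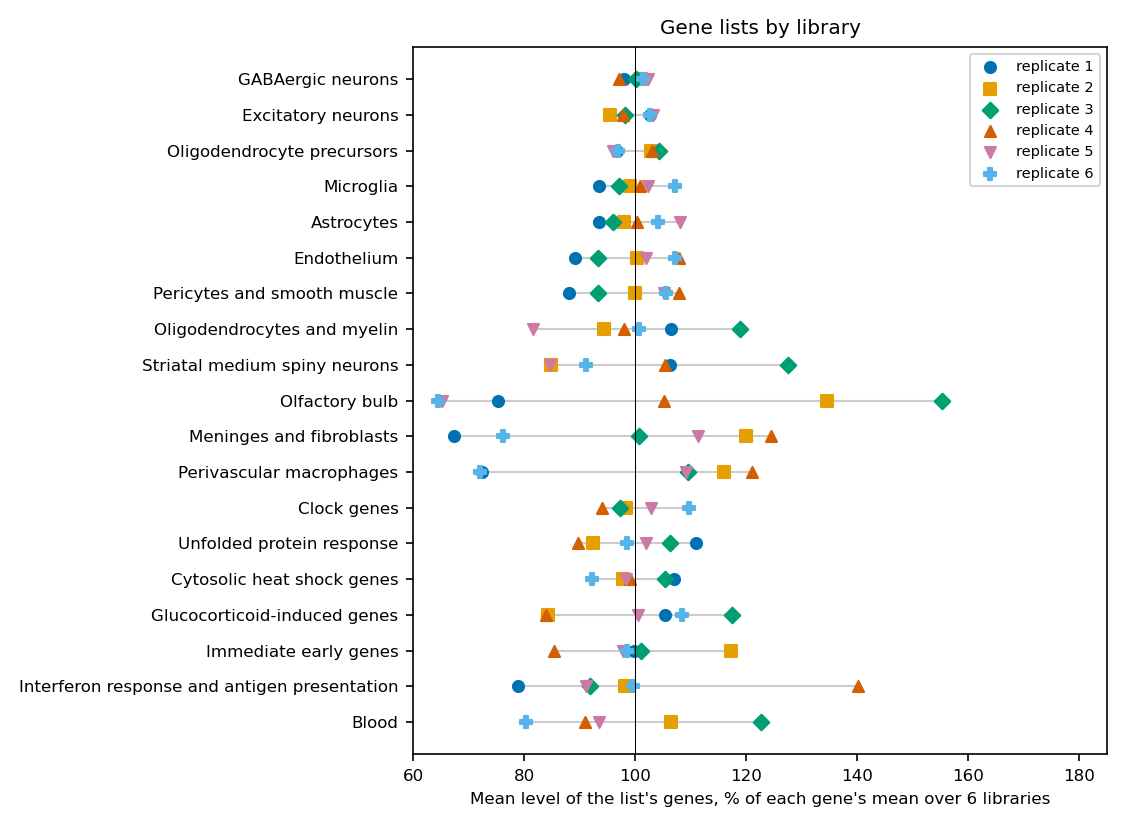
Mean level of the genes of each list in each of the 6 wild-type libraries, where each gene with a mean of 1 CPM or more was first set to 100% of its own mean; points are libraries and the grey line spans them. GABAergic markers lie within 97.0% and 102% in every library, whereas the olfactory bulb list runs from 64.5% to 155% and replicate 4 stands at 140.2% for the interferon and antigen presentation list.

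Markers of choroid plexus, ependyma and olfactory bulb were low, while those of meninges and striatum were not. Of 12 choroid plexus genes 2 passed 1 CPM, and Ttr, the transthyretin of choroid plexus, had 0.299, 1.40, 2.43, 1.54, 0.860 and 0.843 CPM. Of the 10 ependymal genes measured, 2 passed 1 CPM, and the list summed to 8.32 CPM. The 11 olfactory bulb genes measured summed to 17.6 CPM and 5 of them passed 1 CPM. By contrast, all 12 meningeal and fibroblast genes passed 1 CPM with a sum of 522 CPM, as did 13 of the 14 striatal genes measured, with a sum of 488 CPM. Most of the meningeal sum came from Ptgds alone. The median of that list was 2.06 CPM per kb, against 0.108 for the choroid plexus list. Of 14 acute inflammation genes 4 passed 1 CPM and 6, Cxcl10, Ccl4, Ccl2, Tnf, Cxcl1 and Saa3, lay below 0.1 CPM. That list summed to between 78.9 and 118 CPM. Haemoglobin transcripts were detected throughout, with Hbb-b1 at 53.7 ± 10.7 CPM (SD, n = 6). Genes of sensory receptors had few counts. Of 1110 rows named as olfactory receptors 947 had no count and 3 passed 1 CPM, and of 320 vomeronasal receptor rows 294 had no count.

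Ionotropic glutamate receptors were dominated by AMPA subunits and by the obligatory NMDA subunit. Gria1 had 57.2 ± 2.60 CPM per kb, Gria2, the subunit that limits calcium entry, 44.6 ± 2.36, the kainate subunit Grik5 43.3 ± 3.18, and Gria3 32.2 ± 1.18 (SD, n = 6). Gria1 exceeded Gria2 in all 6 libraries per kb of joined exons, but with the length of the longest transcript Gria2 led. Grin1, which every NMDA receptor needs, had 69.5 ± 2.95 CPM per kb against 11.5 for Grin2c and between 2.29 and 2.78 for Grin3a, Grin2a, Grin2b and Grin2d. Grin2a and Grin2b lay 1.02-fold apart, did not keep the same order in all libraries, and are long transcripts whose level depends on the length assumed. Metabotropic receptors ran from Grm3 (24.8), Grm5 (16.2), Grm2 (13.6) and Grm7 to Grm6 at 0.0183 CPM, a receptor of the retina.

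GABA-A receptors, the chloride channels of fast inhibition, ran from abundant subunits to nearly absent ones. Among the higher subunits, Gabra3 stood at 47.3 ± 1.19 CPM per kb (SD, n = 6), and Gabrd, of extrasynaptic receptors, at 24.4. Of the 19 subunits 12 passed 1 CPM, 4 lay below 0.1 CPM, among them Gabra6 of cerebellar granule cells at 0.0204, and Gabrp had no count. Glycine receptors were represented by Glrb (47.8 CPM per kb), with Glra2, the highest alpha subunit, at 2.90.

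Receptors for modulatory transmitters were lower and few of each family were raised above the rest. Chrm1 (37.1 ± 2.06 CPM per kb) and Chrm4 (32.2 ± 2.35) led the acetylcholine receptors, followed by the nicotinic subunit Chrna4 (8.58), the muscarinic Chrm3 (7.19) and the nicotinic Chrnb2 (7.11). Chrm3 and Chrnb2 did not keep one order across libraries. Chrna9 of the inner ear had no count. Serotonin receptors were led by Htr5a (5.61), Htr2a (4.45), Htr1a (3.20) and Htr3a (3.05), and Htr3b was lowest at 0.0147 CPM. Among catecholamine receptors Adra1d (13.5), Adra1b (7.67) and Adrb1 (7.63) were highest and Drd3 lowest at 0.0180 CPM. Neuropeptides split into a cortical and a hypothalamic set. Of 30 precursors 18 passed 1 CPM, led by Sst, Cck, Npy and the granin Scg2 (75.9), and 9 were below 0.1 CPM, among them Oxt, Avp, Hcrt, Agrp and Pmch, the peptides of hypothalamic nuclei.

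**Figure D2:**
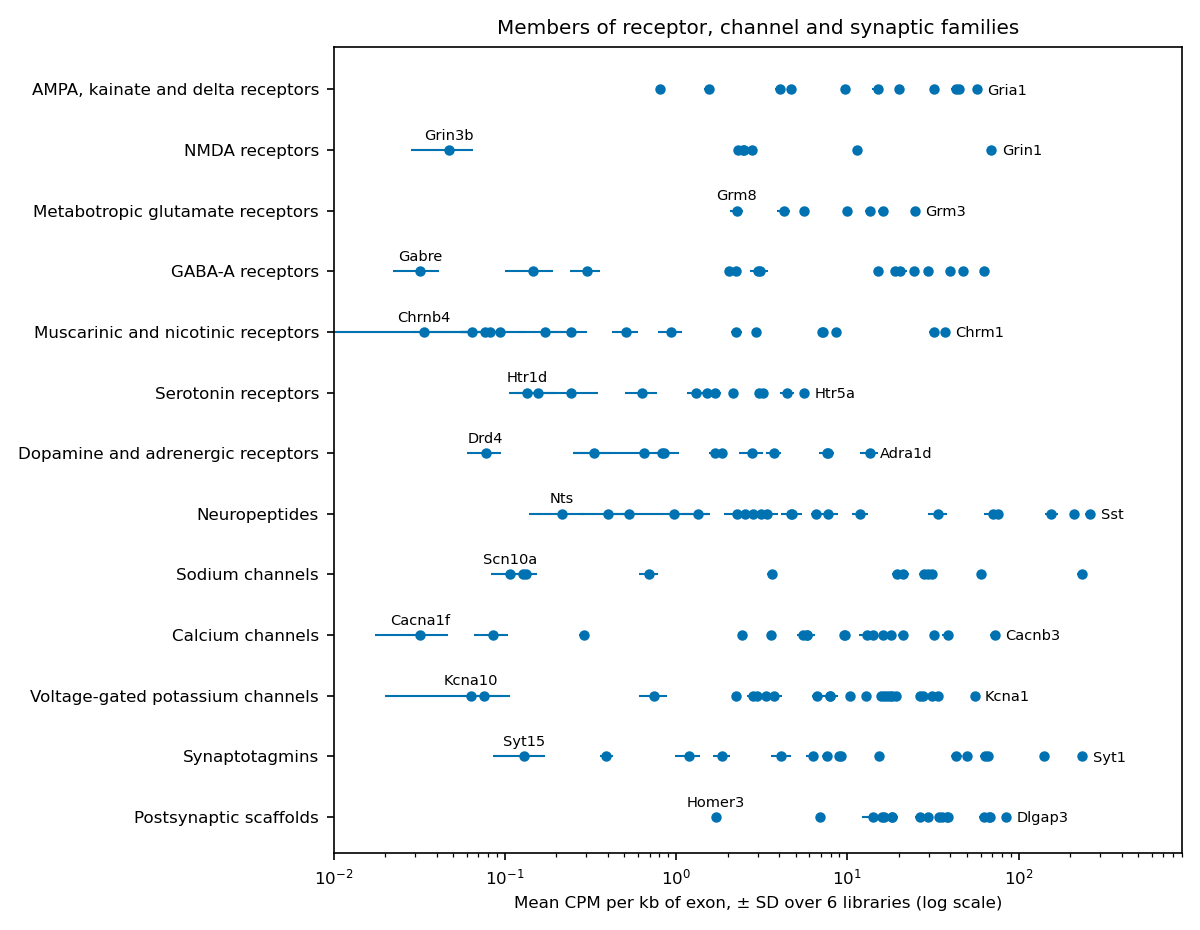
Mean level in CPM per kb of exon of every measured member of 13 families (points, log scale), with bars of ± 1 SD over the 6 wild-type libraries and names at the highest and lowest plotted member of most families; members with a mean under 0.1 CPM are not shown. In every family plotted the highest and lowest members differ by more than 10-fold, and bars are widest for the low members.

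Voltage-gated channels showed the same layering of a few leading members over a long tail. Among sodium channels, the auxiliary beta subunit Scn2b stood at 60.5 ± 1.08 CPM per kb, above the pore-forming Scn8a (31.2), Scn2a1 (29.4) and Scn1a (21.2), while Scn11a of sensory neurons lay at 0.0852 CPM. Calcium channels were headed by 3 beta subunits, Cacnb3 (72.4 ± 3.85), Cacnb1 (38.5) and Cacnb4 (31.9), with Cacna1a of presynaptic terminals at 21.1 and Cacna1f of the retina lowest at 0.291 CPM. Among the highest potassium channels were Kcna1 (55.3 ± 1.84) and Kcnh3 (27.6). Of 26 potassium channel genes 23 passed 1 CPM, and Kcna7 was lowest.

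The machinery of transmitter release was abundant. Snap25 stood at 561 ± 16.4 CPM per kb, the complexin Cplx1 at 368 ± 23.5, the vesicle SNARE Vamp2 at 294 ± 7.53 and Cplx2 at 281 ± 16.3 (SD, n = 6), whereas Cplx4 of the retina lay at 0.00401 CPM. Syt1, the calcium sensor of fast release, led 17 synaptotagmins at 235 ± 6.58, ahead of Syt11 (141), Syt5 (66.4) and Syt13 (64.0). On the receiving side, Dlgap3 (84.9 ± 5.05), Shank1 (68.0 ± 4.78), Baiap2 (67.4) and Dlg4, the scaffold PSD-95 (62.5), were the highest of 17 scaffolds, and Homer3 the lowest at 1.71. Homer1 was the one scaffold with a large spread, at 267, 181, 217, 177, 163 and 142 CPM, a CV of 23.4%; replicate 1 was the highest. Nlgn2 of inhibitory synapses (47.8) led neurexins and neuroligins.

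Cytoskeletal and transport genes included some of the highest transcripts of the tissue. Tubb4a (455 ± 13.4 CPM per kb), Tuba1a (365), Actb (305) and Actg1 (222) led tubulins and actins, and Actc1 of heart muscle had no count. Stmn3 (375) and Stmn1 (283) were above Mtap1a (168). Neurofilaments were ordered Nefl (141), Ina (72.1), Nefm (56.3) and Nefh (22.3), and the peripheral filament Prph lay at 0.504 CPM. Kif5a (649 ± 28.4) stood over Kif1a (192) and Kif5c (153), while the mitotic kinesins Kif11, Kif20a and Kif2c stayed at or below 1.45 CPM. Sodium and calcium pumps were led by Atp1b1 (449 ± 21.6), a beta subunit of the sodium pump. The sum of their list had a CV of 0.847%, which was 2.57% with library totals in place of TMM factors.

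Glycolytic isoforms differed in how far one led the other. Aldoa had 507 ± 18.9 CPM per kb, Ldhb 363 ± 14.1, Aldoc 289 ± 31.8 and Pkm 268 ± 4.28 (SD, n = 6). Hk1 exceeded Hk2 by 82.0-fold and Ldhb exceeded Ldha by 4.64-fold. Aldoa exceeded Aldoc by only 1.76-fold, and Eno2 exceeded Eno1 by 1.52-fold, an order that turned with the length of the longest transcript. The germ-line isoforms Gapdhs and Pgk2 had no count. Nuclear subunits of the respiratory chain took 0.865 ± 0.0221% of counts and cytosolic ribosomal proteins 0.943 ± 0.0263% (SD, n = 6). Of the 80 ribosomal protein genes above 1 CPM, 48 had their lowest value in replicate 4, as did 28 of 79 respiratory subunits. The relative level of these lists there was 95.5% and 96.9%. The share of all genes lowest in replicate 4 is not given, so these counts are not read as a trait of the lists.

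Genes tied to amyotrophic lateral sclerosis and to RNA processing were moderately expressed. Tardbp, which codes for TDP-43 and is the gene edited in the other genotypes, stood at 223, 214, 218, 217, 207 and 213 CPM, or 27.6 ± 0.654 CPM per kb (SD, n = 6). Its GRCm38 position is chromosome 4, 148612382 to 148627019, minus strand, and Masp2 runs through part of it in the opposite sense, so reads of both could be mixed. Its relatives Hnrnpa1 (67.8 ± 1.86), Hnrnpa2b1 (63.9 ± 2.44), Ewsr1 (49.3) and Matr3 (34.8) were above it per kb. Atxn2 had 8.07 and Tia1 6.74. Among splicing regulators Rbfox1 (77.5) and Rbfox3 (62.0) led, followed by Celf4 (56.1) and Celf5 (47.3), and Mbnl3 was lowest at 0.0186 CPM. Malat1, the nuclear noncoding RNA, had 98.7 ± 6.95 CPM per kb in these polyadenylated libraries.

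Within the 31 gene families, 379 pairs of neighbours in the order of CPM per kb were compared library by library. The order was the same in all 6 libraries for 280 of them and not for the other 99, so neighbours in those families should be read as close. Order within the marker lists was not compared in this way. With the length of the longest transcript in place of joined exons, the highest member stayed the same in 19 of 31 families. The 12 in which it changed included AMPA receptors (Gria2), neuropeptides (Cck), scaffolds (Dlg4) and the ALS genes (Hnrnpa2b1).

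Most paralog pairs kept their order in every library. Of 71 pairs, 68 had the same member higher per kb in every library, and the median SD of the log2 ratio over the 6 libraries was 0.093. The ratio was over 16-fold in 8 pairs. Cox4i1, a subunit of complex IV, exceeded its lung isoform Cox4i2, which was under 1 CPM, by a log2 ratio of 7.37 ± 0.273 (SD, n = 6). Snap25 exceeded the non-neuronal Snap23 by 7.37 ± 0.0897, Hspa8 the stress-induced Hspa1b by 6.76 ± 0.205, and Hk1 exceeded Hk2 by 6.36 ± 0.0918 on the same scale. Of the 8 pairs, Slc17a6 / Slc17a7 alone had its second member higher, at -6.45 ± 0.137. In 20 pairs, by contrast, the members lay within 1.5-fold of each other. The 3 pairs whose order differed between libraries were Prkaca / Prkacb, the catalytic subunits of protein kinase A, at 0.0065 ± 0.0615, Grin2a / Grin2b at 0.031 ± 0.0454, and Hnrnpa1 / Hnrnpa2b1 at 0.086 ± 0.0718.

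A pair of ratios had an SD over 0.3. Actb / Actg1, the cytoplasmic actins, had log2 ratios of 0.08, 0.00, 0.79, 0.72, 0.55 and 0.91 in replicates 1 to 6. That spread lay with Actg1, whose CPM was 804, 817, 477, 476, 556 and 409 with a CV of 30.1%. Actb had a CV of 3.70%, and replicates 1 and 2 were the highest for Actg1. Actg1 also has a near-identical copy, Actg-ps1, 98.3% identical over 1108 bases. That copy had a mean of 0.334 CPM, and the sum of gene and copy had a CV of 30.1%. Hba-a1 / Hba-a2, the alpha globins, ran from 0.82 to 2.07. Their sequences are near-identical over 538 bases, so how reads were split between them is uncertain, and the same holds for Tuba1a / Tuba1b over 1357 bases.

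**Figure D3:**
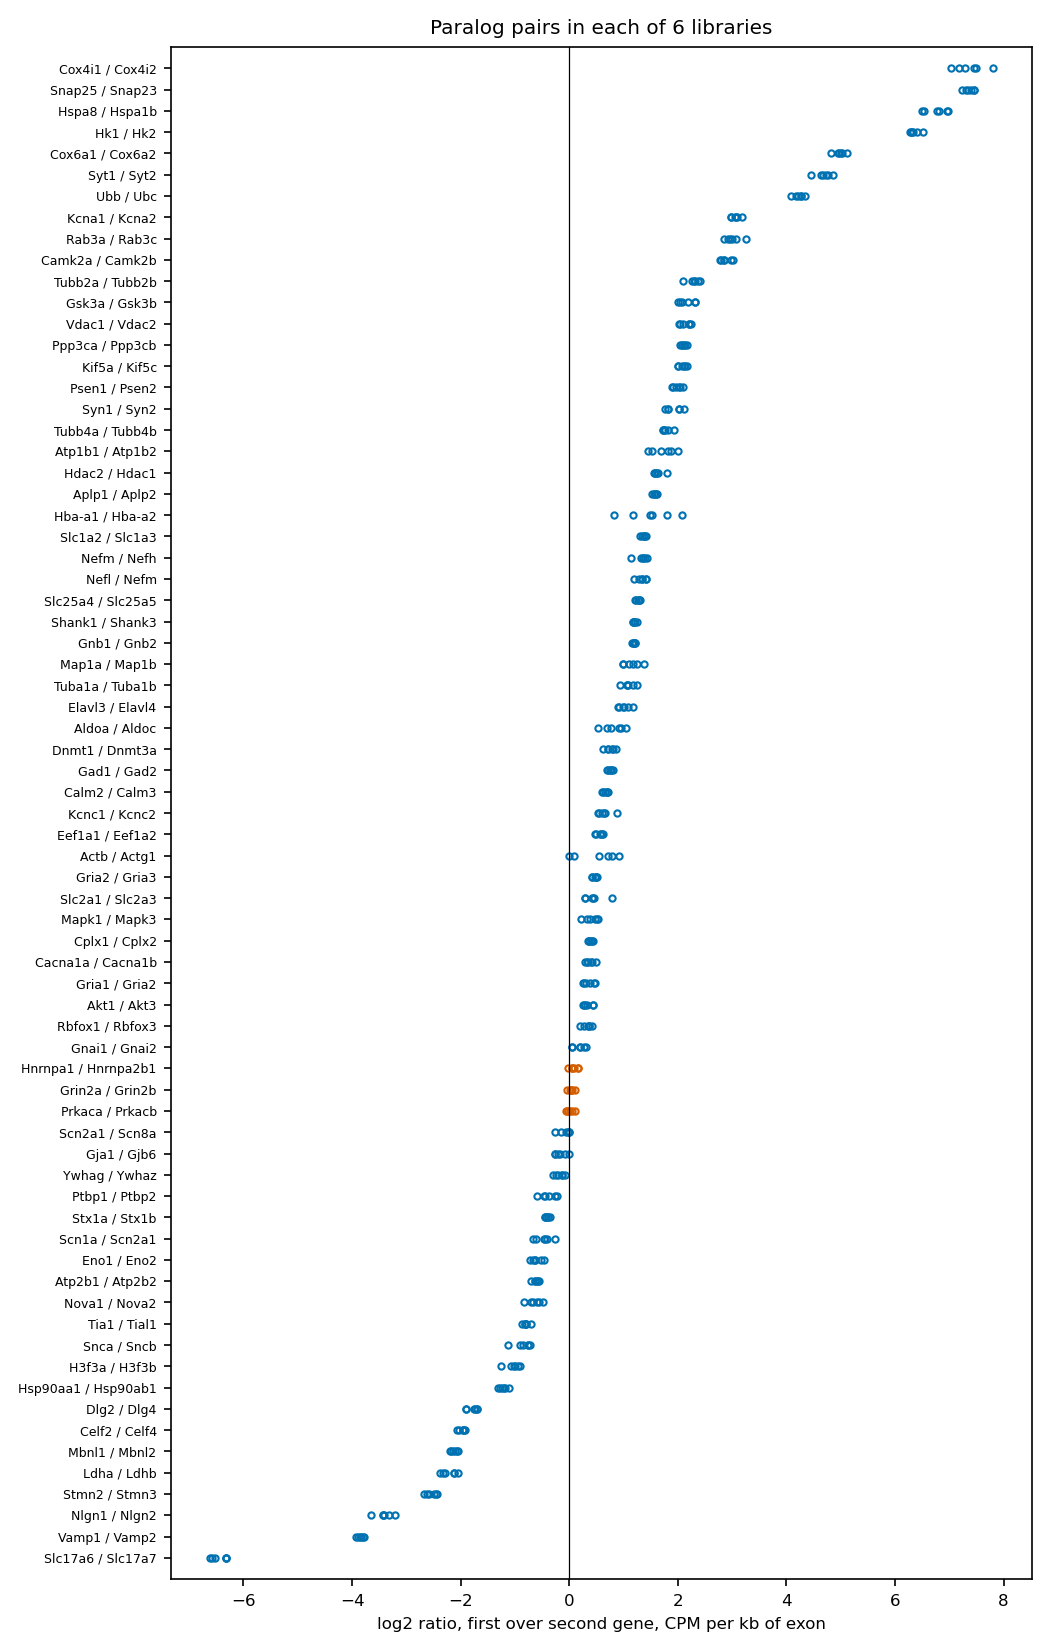
Log2 ratio of the first over the second gene of each of 71 pairs, in CPM per kb of exon, with 1 open circle per library; orange pairs did not have the same member higher in all 6 libraries. The 3 orange pairs sit near 0, Actb / Actg1 and Hba-a1 / Hba-a2 are spread widest, and most other pairs form tight groups.

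Spread fell with abundance but stayed above counting error. Genes with a mean between 1 and 2 CPM had a median CV of 14.9%, where counting alone, taken as a Poisson process, would give 9.07%. Between 10 and 50 CPM the median CV was 5.17% against 2.19%, and at 200 CPM or more 3.83% against 0.585%. Whether a sequenced fragment could be counted more than once is not known, so the counting error may be larger than given. Odd numbers made up between 73.9% and 75.7% of the counts of 1 to 10 in each library. No share to set this against was computed. A CV over 10% was found in 2652 genes (19.1%), over 50% in 45, and under 2% in 487. The 20 most variable named genes fell into 4 kinds: mitochondrial genes of one stretch, genes with near-identical copies, antigen presentation genes, and genes of olfactory tissue, beside Ndst4, a heparan sulfate enzyme at 1.52, 2.77, 1.39, 0.787, 0.388 and 0.422 CPM. A further 13 predicted genes with CVs as large were passed over in choosing these names.

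**Figure D4:**
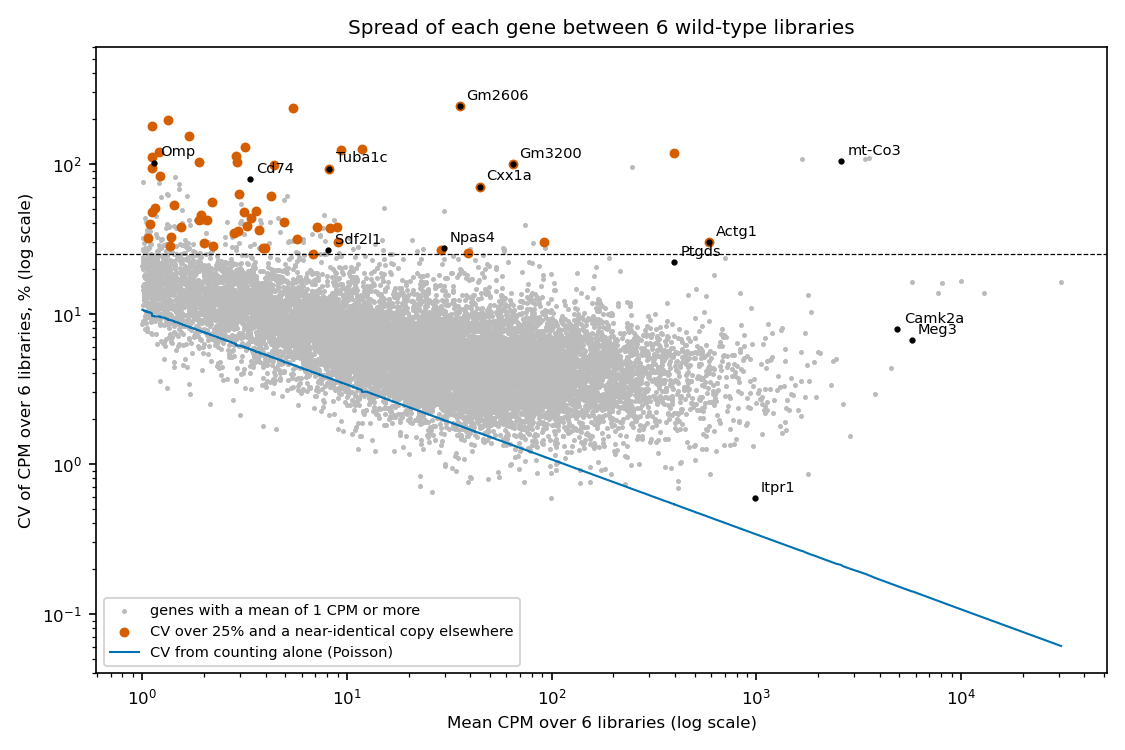
CV over the 6 wild-type libraries against mean CPM, both on log scales, for 13849 genes (grey); orange points have a CV over 25% and a near-identical copy elsewhere in the genome, and the blue line is the CV of counting alone. Gm2606 and Gm3200 are copies of Gapdh, mt-Co3 lies far above the dashed line at a CV of 25% despite its 2589 CPM, and Itpr1 has a CV of 0.590%.

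The widest spread at high abundance lay in 6 adjoining mitochondrial genes. The mitochondrial genome is read as long transcripts that are cut into mRNAs for subunits of the respiratory chain. From mt-Co2 to mt-Nd4l (positions 7013 to 10173), the genes mt-Co2, mt-Atp8, mt-Atp6, mt-Co3, mt-Nd3 and mt-Nd4l together took 2.53, 0.374, 1.27, 0.0177, 0.0762 and 2.72% of all counts in replicates 1 to 6, a 154-fold range. The 7 other protein-coding genes took between 6.61% and 8.81%, a 1.33-fold range. For mt-Co3, a subunit of complex IV, the levels were 5744, 810.0, 2789, 21.1, 232 and 5939 CPM. mt-Co1, the gene just before the stretch and a subunit of the same complex, had 32547, 26179, 27851, 26670.4, 32284 and 39262 CPM. Replicates 1 and 6 were high in all 6 genes except that mt-Nd3 and mt-Nd4l of replicate 6 lay below replicate 3, and replicate 4 was lowest in every one. In the 14 libraries of the other genotypes the same stretch took between 0.0159% and 2.12% of counts and the 7 others between 6.15% and 8.59%, a range of similar width.

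Nuclear DNA carries inserted stretches of mitochondrial genome, and the table holds a copy of 1 gene of this stretch. The predicted gene Gm10222 on chromosome 1 (24612404 to 24612700, minus strand) matched mt-Nd4l at each of 294 bases. The first 60 bases of both are shown in lower case, without capitals, because no position sets them apart.
mt-Nd4l: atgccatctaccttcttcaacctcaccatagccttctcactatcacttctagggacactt
Gm10222: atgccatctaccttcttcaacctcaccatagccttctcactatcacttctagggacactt
Gm10222 had 2.65, 3.04, 2.64, 6.15, 3.55 and 4.23 CPM, highest in replicate 4, where mt-Nd4l was lowest at 5.26 CPM. The sum of mt-Nd4l and Gm10222 had a CV of 116.1%, against 117.4% for mt-Nd4l alone. How reads that match both places were assigned is not given in the sources used here, and its part in the range was not tested. Summed over all 13 mitochondrial genes the CV was 22.3%, and without the stretch it was 13.6%.

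**Figure D5:**
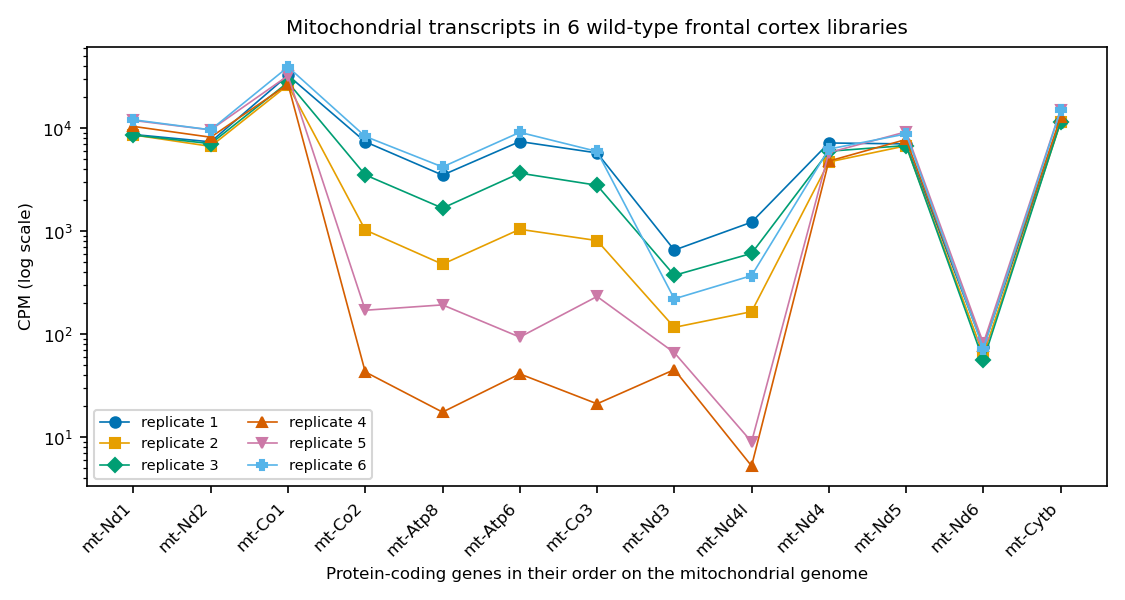
CPM (log scale) of the 13 mitochondrial protein-coding genes in the order of the genome, with 1 line per wild-type library. The lines run close together from mt-Nd1 to mt-Co1 and from mt-Nd4 to mt-Cytb and fan out over more than 2 orders of magnitude between mt-Co2 and mt-Nd4l.

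Genes with a near-identical copy were frequent among the variable ones. A stretch of at least 200 bases with 98% identity to another gene of the table was found in 524 of 13692 genes that could be searched (3.83%). Among those with a CV over 25% the share was 56 of 215 (26.0%), and among those over 50% it was 25 of 44 (56.8%). Some of these genes reached a mean of 1 CPM through 1 library alone, which by itself makes the CV large. Gm10132, for example, had 31.5 CPM in replicate 4 and 0.167 to 0.281 in the others. The shares are therefore partly set by the filter. Pseudogenes made up 28 of the 219 genes over 25% (12.8%), against 0.794% of all genes above 1 CPM. For 36 of the 56, the sum of the gene and its most abundant copy had a CV of 25% or less. That sum is steady by construction where the copy is far more abundant than the gene.

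Copies of Gapdh, a glycolytic enzyme widely used as a reference gene, gave the plainest case. Gm2606 on chromosome 15 (12574889 to 12575890, plus strand) had 212 CPM in replicate 1 and 0.208 to 0.291 CPM in the 5 others. Gm3200 on chromosome 7 (51746697 to 51747698, plus strand) had 8.89, 43.0, 28.2, 84.7, 187 and 38.3 CPM, highest in replicate 5. Gapdh itself, on chromosome 6, had a mean of 579 CPM and a CV of 3.19%. Over the 999 coding bases without the stop codon, Gm3200 was identical to Gapdh and Gm2606 differed at 1 base, C583T, counted from 1 at the A of the start codon. Bases 553 to 612 hold the difference, in capitals. It sets Gm2606 apart, and no coding base tells Gapdh from Gm3200.
Gapdh: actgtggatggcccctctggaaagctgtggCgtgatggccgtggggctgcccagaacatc
Gm2606: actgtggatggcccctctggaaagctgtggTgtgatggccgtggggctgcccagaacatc
Gm3200: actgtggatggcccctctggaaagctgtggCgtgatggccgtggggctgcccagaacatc
Levels of such genes are therefore uncertain, and no separate expression of a copy can be read from them.

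Of the named variable genes, several belong to the same class. Rpl9-ps6, a copy of the ribosomal protein gene Rpl9, had 41.6 CPM in replicate 3 and 3.46 to 11.4 in the others, and Rpl9 a CV of 3.01%. Tuba1c, an alpha tubulin 98.5% identical to Tuba1a over 1307 bases, had 15.9 and 19.8 CPM in replicates 5 and 6 and 2.83 to 4.18 in the rest. Cxx1a on the X chromosome had 107 CPM in replicate 6 and 26.8 to 45.4 elsewhere, while its copy Cxx1b, 99.6% identical, was highest in replicate 5 at 48.8. Gvin1, an interferon-inducible GTPase, was high in replicates 1 and 6 (2.33 and 6.69 CPM), and its copy Gm4070 in replicate 5 (5.21 CPM). Srp54b, of the signal recognition particle, ran from 0.512 to 12.2 CPM and Xlr3b from 0.646 to 5.01. Their copies Srp54c and Xlr3c had means of 0.0584 and 0.0222 CPM, and the sums of gene and copy varied nearly as much as the gene, with CVs of 95.8% and 63.1%. H2-Q6 and Cyp2a5, described with their groups below, also share near-identical stretches with other genes, although Cyp2a4, the copy of Cyp2a5, had no count.

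Antigen presentation genes were high in replicate 4. Cd74, the invariant chain that escorts MHC class II molecules, had 2.36, 2.96, 2.41, 8.77, 1.91 and 1.82 CPM. The class II chains H2-Aa and H2-Ab1 reached 3.79 and 2.52 CPM there against at most 1.42 and 0.994 elsewhere, and the interferon-induced GTPase Iigp1 reached 3.49 against at most 1.52. H2-Q6 of class I followed with 3.16 against at most 1.30. Of the 16 interferon and antigen presentation genes above 1 CPM, 8 were highest in replicate 4, and 5 had a CV over 25%. H2-Ab1 and H2-Q6 reached a mean of 1 CPM only with replicate 4, so their peak there is partly fixed by the filter. Both counts, and the level of the list in replicate 4, rest in part on such genes. B2m, the class I light chain, had 123 CPM in replicate 4 and 86.6 to 113 in the others, which is a smaller step. Without replicate 4 the CV of Cd74 was 19.95%, of H2-Ab1 29.2%, of Iigp1 31.4% and of H2-Aa 31.3%. Perivascular macrophage markers such as Mrc1 (4.67 CPM in replicate 4, 4.38 in replicate 2 and 4.30 in replicate 3) were also at the upper end there, as were meningeal genes, at 124% of their mean, while the microglial list stood at 101%. Their part in the result was not tested.

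Genes of the olfactory bulb and striatal lists differed between libraries, as did Omp and Cyp2a5. Which cells or tissue their transcripts came from was not tested. Omp, the marker protein of olfactory sensory neurons, had 0.191, 2.60, 2.64, 0.291, 0.364 and 0.767 CPM, and Cyp2a5, a P450 enzyme known from nasal mucosa and liver, 0.0953, 3.01, 2.06, 0.0363, 0.218 and 1.26. Replicates 2 and 3 were high in both, and without them neither gene would have reached a mean of 1 CPM. The same 2 libraries were the highest for the 5 olfactory bulb genes above 1 CPM (Doc2g, Th, Cdhr1, Trh and Sp8), at 135% and 155% of the mean, although Cdhr1, a cadherin of mitral cells, was also high in replicate 4 (2.83, 8.83, 6.41, 6.94, 2.41 and 2.16 CPM). All 5 had a CV over 25%. Striatal projection neuron genes peaked in replicate 3 at 128%, where 10 of 13 had their highest value. That percentage weighs each gene equally. The summed CPM of the list moved less, with 532 in replicate 3, 453 to 501 in the others and a CV of 5.83%. The dopamine receptor Drd2 had 1.81, 0.643, 3.27, 2.24, 0.897 and 1.02 CPM, and Adora2a, Tmem90a and Rgs9 had CVs of 40.3%, 38.1% and 23.1%.

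Myelin and meninges varied as whole lists. Myelin genes were highest in replicate 3 (12 of 14 genes, 119% of the mean) and lowest in replicate 5 (14 of 14, 81.7%). Mobp, a basic protein of myelin, had 603, 492, 682, 545, 486 and 584 CPM. Meningeal and fibroblast genes stood at 67.5% in replicate 1 and 76.2% in replicate 6, and between 101% and 124% in the other four. Of these 12 genes, 6 had a CV over 25%, and each of 12 was lowest in replicate 1 or 6. Ptgds, the prostaglandin D synthase of the arachnoid, had 252, 459, 418, 470.3, 453 and 328 CPM, and the organic anion transporter Slc22a6 had 3.50, 9.17, 6.90, 9.35, 9.55 and 5.59. The CV of the summed list was 22.0%, and 14.1% without replicate 1. Ptgds made up most of that sum in every library. Endothelial genes showed a smaller difference in the same library, 89.2% of their mean in replicate 1 with 8 of 12 genes lowest there, and mural genes 88.2%.

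Activity-regulated genes shared a high library. Immediate early genes are switched on within minutes of neuronal firing. Of 21 such genes 13 were highest in replicate 2 (117% of the mean) and 11 lowest in replicate 4 (85.4%). Fos, a subunit of the AP-1 factor, had 35.7, 60.3, 40.4, 32.9, 41.0 and 42.4 CPM. Npas4, a factor known for its selective response to calcium entry, had 17.7, 36.9, 34.3, 21.3, 32.0 and 36.1 and was the 1 gene of the list with a CV over 25%. Arc, an organiser of receptor traffic at spines, stood at 452, 617, 483, 412, 505 and 557 CPM, which places it among the 150 leading genes per kb. The core TGACGT of the cAMP response element occurred on either strand in promoters of 8 of the 15 matched genes of this list. These were Bdnf, Btg2, Dusp1, Egr2, Egr4, Fos, Npas4 and Nr4a3. It occurred in 7.51% of 32851 promoters of 300 bases from RefSeq, a share counted per promoter and not per gene.

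Many clock genes, though not all, were high in replicate 6. The clock is a feedback loop in which CLOCK and BMAL1 act through E-boxes on the genes of their own repressors. Of 19 clock genes, 11 were highest in replicate 6 and 3 lowest there, while 8 were lowest in replicate 1 and 5 in replicate 4. The list stood at 109.7% of its mean in replicate 6, 97.6% in replicate 1 and 94.0%, its lowest, in replicate 4. Dbp, an output of the loop, had 63.8, 75.0, 70.4, 70.5, 92.5 and 110.1 CPM, and Nr1d1, a repressor of BMAL1, 135, 149, 143, 142, 189.6 and 203. Replicates 5 and 6 were the highest in both genes. Ciart, named Gm129 in the table, is a repressor of the loop and had the largest CV of the list (26.9%), at 17.7, 23.3, 19.3, 20.1, 24.8 and 35.0 CPM. Dbp overlaps Sphk2 and Nr1d1 overlaps Thra on the opposite strand. The E-box CACGTG, which reads the same on both strands, occurred in promoters of 5 of 17 matched clock genes (Bhlhe41, Ciart, Cry1, Per1 and Tef). Counted per promoter and not per gene, it occurred in 7.15% of all 32851. Ciart carries 3, in capitals, between 116 and 44 bases before its start, shown because its spread was the widest of the list (RefSeq, GRCm38.p6, chr3:95882255-95882356, minus strand).
Ciart: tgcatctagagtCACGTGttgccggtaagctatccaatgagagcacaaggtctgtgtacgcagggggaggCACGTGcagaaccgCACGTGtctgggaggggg

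Some chaperones of the endoplasmic reticulum were high in the same libraries. The unfolded protein response raises such chaperones through ATF6 when proteins misfold. Hspa5, the chaperone BiP, had 277, 192, 253, 171, 212 and 187 CPM. Its partners followed that order in part: Sdf2l1 stood at 11.2, 6.67, 9.41, 5.05, 8.34 and 7.98 CPM, Creld2 at 14.5, 9.13, 12.6, 8.78, 11.4 and 9.89, and Pdia6 at 100.3, 79.8, 95.3, 77.5, 89.2 and 75.4. Replicates 1 and 3 were the highest in all 4 genes. Of the 16 list members above 1 CPM, 7 were highest in replicate 1, 4 in replicate 6 and 2 in replicate 3, 9 were lowest in replicate 4, and 1, Sdf2l1, had a CV over 25%. Atf3 and Trib3, of the integrated stress response, stayed under 1 CPM, and Asns, Dnajb9 and Chac1 had CVs of 2.42%, 2.84% and 3.14%. The ER stress response element is CCAAT and CCACG set apart by any 9 bases. It occurred on either strand in promoters of 4 of 17 matched genes of the list. Counted per promoter and not per gene, it occurred in 0.119% of all 32851. Promoter stretches of those 4 genes are shown because they hold the element, with its fixed ends in capitals (RefSeq, GRCm38.p6).
Hspa5 (chr2:34772013-34772055, plus strand): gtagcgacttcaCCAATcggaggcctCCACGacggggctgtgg
Hsp90b1 (chr10:86705521-86705668, minus strand): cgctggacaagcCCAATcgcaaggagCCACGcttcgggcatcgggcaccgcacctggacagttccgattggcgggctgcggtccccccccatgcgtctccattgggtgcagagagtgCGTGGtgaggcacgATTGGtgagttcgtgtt
Pdia6 (chr12:17266479-17266521, plus strand): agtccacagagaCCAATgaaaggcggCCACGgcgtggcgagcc
Creld2 (chr15:88819508-88819550, plus strand): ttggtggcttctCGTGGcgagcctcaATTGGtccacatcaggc
Hsp90b1, with 2 matches, had a CV of 7.11%. A match of letters does not show that a factor binds there.

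Glucocorticoid-induced and heat shock genes showed further patterns. Of 13 glucocorticoid-induced genes 4 had a CV over 25%. Plin4, a lipid droplet protein, had 10.3, 3.72, 9.52, 2.86, 8.94 and 10.8 CPM, low in replicates 2 and 4, and Zbtb16 was low in the same libraries at 41.2 and 37.2 against 61.7 to 79.5. Sgk1, a kinase also known from oligodendrocytes, was highest in replicate 3 at 135 CPM. The whole list stood at 84.4% in replicate 2, 84.0% in replicate 4 and 117% in replicate 3. Hspa8, a constitutive chaperone, had 2176 CPM in replicate 1 and 1471 in replicate 6, and the stress-induced Hspa1b 15.6 in replicate 1 and 8.48 to 12.1 in the others.

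At the other end, 10 genes with a mean of at least 10 CPM had a CV of 0.760% or less. Itpr1, the inositol trisphosphate receptor, stood at 981, 982, 984, 987, 974 and 972 CPM. Becn1, an autophagy protein, had 99.6 ± 0.588 CPM, Akr1b3, an aldose reductase, 26.0 ± 0.168, and Dctn1 of the dynactin complex 415 ± 2.84 (SD, n = 6). The others were the RNA methylation subunit Mettl14, the mitochondrial fusion protein Mfn2, the proteasome subunit Psmc5, the enzyme Auh, the transporter Slc35e1 and the survival factor Bcl2l2. They were chosen for the lowest CVs among 9904 genes with such a mean. With library totals in place of TMM factors the CVs of the 10 lay between 1.81% (Auh) and 3.01% (Mfn2). Without replicate 2 the CV was 0.230% for Dctn1, 0.254% for Mfn2 and 0.360% for Akr1b3. It was 0.396% for Mettl14 without replicate 3, 0.316% for Psmc5 without replicate 4 and 0.371% for Slc35e1 without replicate 6. In the other genotypes their CVs ran from 1.61% for Becn1 to 6.89% for Akr1b3. For each of the 10 except Itpr1, Dctn1 and Mfn2, the CV was smaller than counting alone would give, as for Akr1b3 with 0.646% against 2.09%. Becn1 overlaps Cntd1 and Bcl2l2 overlaps Gm20521.

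Spread in the other genotypes, taken within each and pooled, had a median CV of 6.22% over the same genes. Of the 219 wild-type genes over 25%, 104 were also over 25% there, as were 45 of the 50 most variable, against 196 of all 13849 genes. Omp had a CV of 102% in wild type and 84.3% in the other genotypes, Cyp2a5 110.1% and 104%, Drd2 60.7% and 83.9%, and Plin4 45.3% and 67.5%. For Cd74 the values were 79.4% and 17.8%, for H2-Aa 82.2% and 19.3%, and for Cxx1a 70.3% and 16.0%, so these large CVs were seen in wild type and not in the pooled value of the others, a difference that was not tested.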

How the data were processed

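Polyadenylated RNA from snap-frozen frontal cortex was sequenced from TruSeq Stranded mRNA libraries, per the labels' protocols. The authors deposited whole-number counts per gene for 20 libraries. Trim Galore 0.4.3, HISAT2 2.0.5 and GRCm38 are named in the submitters' processing notes; which program counted reads, with which annotation and strand option, is not given in the sources used here. Reads of overlapping genes may therefore be shared, for Tardbp, Dbp, Nr1d1, Mtap1a, Slc1a2, Becn1, Plin4, Pdia6 and Manf with a gene on the opposite strand, and for Bcl2l2, Doc2g and Hsp90b1 with one on the same strand.

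The 6 wild-type columns were taken by genotype label and scaled with TMM factors from edgeR 4.0.16 (R 4.3.3), from 75168829 to 96821696 counts per library. The 56 rows without an identifier, 0.0763% to 0.0799% of counts, stayed in the totals and in CPM. They had no exon length and could not be searched for copies. Exon lengths came from GENCODE M21, which matched 24990 of 25909 identifiers (96.5%). Per-kb levels used the joined exons of all transcripts. The CV was taken over the 6 libraries for genes with a mean of at least 1 CPM, and its calculation was tested on simulated data. A gene can pass this filter through its highest library alone, and its CV is then large. Near-identical stretches were sought with BLAST+ 2.17.0 at 98% identity over 200 bases. Replicates were not duplicates of each other: a chi-square of any pair's counts over genes was at least 23.5 per degree of freedom. Alternatives were library totals, DESeq2 1.42.0 size factors, removal of mitochondrial genes, other filters, other measures of spread, other lengths, and leaving out each library. Leaving out near-identical copies or the mitochondrial stretch was chosen after seeing the data.

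The members, gene lists and pairs were chosen with earlier results of these data known. Named genes were the 20 highest by CPM and by CPM per kb, up to 4 highest, the lowest and the near-absent members of each list, both members of described pairs, the 20 largest and 10 smallest CVs without predicted genes, and up to 4 variable members of a list described for its variation. Genes of cholesterol synthesis were not named, and some genes that the rule selects are not reported here. Other genes given with values, such as Gm2606, Gm3200, B2m, Arc and Homer1, were chosen after their values were seen.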

Additional observations from a re-analysis of the deposited data

Results flagged for a closer look

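Among the 6 wild-type libraries, 14 of 175 sets of values held a library that stood apart by Dixon's criterion, in which the gap to the nearest library is compared with the whole range. Chance gives about 1 in 20, and 10 of the 14 were among 30 genes chosen for a very large or very small CV. The other sets were 63 lists, 11 shares of counts and 71 pairs, of which 1 list, 0 shares and 3 pairs were flagged. Outside the chosen genes, flags were thus no more frequent than that chance rate. Replicate 4 stood apart in 6 sets, replicate 6 in 4, replicate 2 in 2, replicates 1 and 3 in 1 each, and replicate 5 in 0.

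Replicate 4 had 8.77 CPM of Cd74, 3.79 of H2-Aa, 2.52 of H2-Ab1, 3.49 of Iigp1 and 3.16 of H2-Q6, above each of the other 5 libraries. The interferon and antigen presentation list stood there at 140.2% of its mean against 78.9% to 99.7%. H2-Ab1 and H2-Q6 reached a mean of 1 CPM, needed to enter that level, only with replicate 4.

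Genes with near-identical copies stood apart in other libraries: Gvin1 in replicate 6 (6.69 CPM), Rpl9-ps6 in replicate 3 (41.6 CPM) and Cxx1a in replicate 6 (107 CPM).

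Dctn1 and Mfn2 stood apart in replicate 2 at 409 and 231 CPM, although the libraries span less than 8 CPM for either gene.

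The log2 ratio Slc2a1 / Slc2a3, glucose transporters of vessels and of neurons, was 0.79 in replicate 6 against 0.29 to 0.46. Kcnc1 / Kcnc2 was 0.88 in replicate 6 against 0.53 to 0.66, and Hdac2 / Hdac1 was 1.79 in replicate 1 against 1.57 to 1.63.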

How the results depend on the processing

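No paired analysis was possible because no genotypes were compared. The count of genes with a CV over 25% was 60 with a mean of at least 5 CPM and 1639 with a mean count of at least 10, and of the 50 most variable genes 16 and 18 were shared, since these filters change which low genes enter. Under the other settings it was 163 to 242, and 199 to 260 without 1 library, with 39 to 50 of the 50 shared. The median CV was 4.90% to 6.50%, genes at 1 CPM in every library 13473 to 13849, the mitochondrial share 7.52% to 9.03%, and pairs with a constant order 66 to 69. Without replicate 4 the CV of H2-Q6 was 46.8%, without replicate 3 that of Rpl9-ps6 was 54.7%, and without replicate 6 that of Cxx1a was 23.8%. With library totals the summed GABAergic markers had a CV of 3.32%. Per-kb order rests on the length. As CPM alone the log2 ratio turned for Calm2 / Calm3 (-0.062), Gnai1 / Gnai2 (-0.088), Cplx1 / Cplx2 (-0.78), Slc2a1 / Slc2a3 (-0.60), Gria1 / Gria2 (-1.004), Ywhag / Ywhaz (0.23), Rbfox1 / Rbfox3 (-0.079), Tia1 / Tial1 (0.39), Dnmt1 / Dnmt3a (-0.42) and Gja1 / Gjb6 (1.77). With the longest transcript it turned for Gnai1 / Gnai2 (-0.59), Gria1 / Gria2 (-0.10), Eno1 / Eno2 (0.052), Ywhag / Ywhaz (0.13), Rbfox1 / Rbfox3 (-0.038), Tia1 / Tial1 (0.38) and Gja1 / Gjb6 (0.89). The 3 pairs without a constant order had log2 ratios of -1.81 (Prkaca / Prkacb), -0.98 (Hnrnpa1 / Hnrnpa2b1) and -0.44 (Grin2a / Grin2b) as CPM alone, and -0.88, -0.75 and 0.28 with the longest transcript, with 1 order in all 6 libraries. Genes near 1 CPM carry a counting CV of about 9.07%, so their spread is the least certain.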
